A study of Homo sapiens with 22 samples.

Results

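The adhesion and surface genes of the intestinal epithelium were examined for binding of the replication factor MTBP, for the histone mark H3K4me2 and for initiation of DNA replication. The 10 genes, of 19970 protein-coding genes on chromosomes 1 to 22 and X, were EPCAM, CDH1, CDH17, GPA33, VIL1, CLDN3, CLDN4, CLDN7, CEACAM5 and CEACAM6. Each gene's RefSeq span was extended by 20 kb on either side, and every MTBP peak, H3K4me2 peak and initiation zone that overlapped this window by at least 1 bp was taken. The windows were 41.3 to 138 kb wide and held 41 of 29848 MTBP peaks, 57 of 62388 H3K4me2 peaks and 7 of 2473 initiation zones.

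All 22 libraries came from DLD-1, an established human colorectal adenocarcinoma cell line, whose MTBP alleles carried tags. The genotypes were MTBP-mAID/MTBP-deltaC-FLAG, with a C-terminally truncated MTBP, MTBP-mAID/MTBP-WT-FLAG, with full-length MTBP, and MTBP-mAID/MTBP-mAID, with no FLAG tag, so every line also carried the degron-tagged mAID allele. CUT&RUN with a FLAG antibody, in which a nuclease bound to the antibody cuts out the DNA around the target, was done in 3 libraries of each genotype, and CUT&RUN for H3K4me2 and with IgG in 2 libraries each of the MTBP-WT-FLAG line. EdU-seq, which sequences DNA newly made in the presence of 10 µM EdU for 3 hr, was done in released deltaC cells, in released WT cells and in G1-arrested WT cells (3 libraries each), and release was into hydroxyurea and aphidicolin, which hold forks near the places where they start. The 3 deposited lists hold at most 1 value per line for each peak or zone and no value per library, so no difference could be tested against the spread between libraries, and depth is unknown. Whether a line was a single clone is not stated in the labels.

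MTBP acts with Treslin (TICRR) to bring CDC45 and GINS to the loaded MCM helicase, the step at which an origin fires. H3K4me2 marks active promoters and enhancers, and replication in early S phase starts in broad zones that often lie beside active genes. In the gut, EPCAM and the cadherins CDH1 (E-cadherin) and CDH17 (LI-cadherin) hold epithelial cells together, claudins (CLDN3, CLDN4, CLDN7) form and tune tight junctions, villin (VIL1) bundles actin in brush-border microvilli, and GPA33, CEACAM5 and CEACAM6 are surface proteins of the immunoglobulin superfamily, the CEACAM pair being anchored to the membrane through a lipid.

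The promoter sequences show how differently these genes begin. RefSeq promoter windows of GRCh38.p14, the assembly of hg38, run from 250 bases before to 50 bases after the start and were matched for 6 of the 10 genes, not for EPCAM, CDH1, CDH17 and VIL1. All coordinates are those of hg38. The CLDN3 and CLDN4 windows lay under MTBP and H3K4me2 peaks, whereas the GPA33, CEACAM5 and CEACAM6 windows lay under neither, and these 5 are shown for that contrast. Capitals mark matches, on either strand, to any of 5 motifs. These were the core site of the gut factor CDX2 (TTTATG, or the variant TTTATT), the E-box (CACCTG, whose reverse complement is CAGGTG), the CCAAT box (spelled as named), the TATA box form TATAAA, and the GC box, which reads GGGCGG. Neighbouring capitals can join matches to different motifs. E-box here means the form CACCTG only, and other forms of the E-box were not searched or marked.
CLDN3, chr7:73770221-73770520, minus strand: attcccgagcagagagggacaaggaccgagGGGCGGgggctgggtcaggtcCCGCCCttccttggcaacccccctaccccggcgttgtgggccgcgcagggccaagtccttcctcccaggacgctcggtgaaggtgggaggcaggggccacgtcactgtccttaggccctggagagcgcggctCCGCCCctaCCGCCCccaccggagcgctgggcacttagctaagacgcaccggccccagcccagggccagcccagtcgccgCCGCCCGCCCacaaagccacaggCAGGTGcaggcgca
CLDN4, chr7:73830746-73831045, plus strand: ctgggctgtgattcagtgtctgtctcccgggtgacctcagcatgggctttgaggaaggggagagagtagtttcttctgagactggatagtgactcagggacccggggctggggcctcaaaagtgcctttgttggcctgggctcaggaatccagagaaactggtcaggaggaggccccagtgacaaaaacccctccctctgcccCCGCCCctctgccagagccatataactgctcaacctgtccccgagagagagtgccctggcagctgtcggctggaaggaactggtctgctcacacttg
GPA33, chr1:167090328-167090627, minus strand: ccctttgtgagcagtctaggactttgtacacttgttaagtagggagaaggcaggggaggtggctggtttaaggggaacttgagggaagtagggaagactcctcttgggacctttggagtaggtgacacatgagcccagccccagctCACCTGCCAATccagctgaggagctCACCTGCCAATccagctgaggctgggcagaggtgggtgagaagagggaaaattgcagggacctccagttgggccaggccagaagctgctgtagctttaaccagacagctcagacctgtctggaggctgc
CEACAM5, chr19:41708376-41708675, plus strand: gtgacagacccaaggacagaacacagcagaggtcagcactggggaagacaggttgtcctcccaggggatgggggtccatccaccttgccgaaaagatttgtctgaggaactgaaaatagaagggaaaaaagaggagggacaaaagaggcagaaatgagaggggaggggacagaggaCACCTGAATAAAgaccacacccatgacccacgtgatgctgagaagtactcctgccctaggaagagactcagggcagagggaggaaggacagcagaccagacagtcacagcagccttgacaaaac
CEACAM6, chr19:41755280-41755579, plus strand: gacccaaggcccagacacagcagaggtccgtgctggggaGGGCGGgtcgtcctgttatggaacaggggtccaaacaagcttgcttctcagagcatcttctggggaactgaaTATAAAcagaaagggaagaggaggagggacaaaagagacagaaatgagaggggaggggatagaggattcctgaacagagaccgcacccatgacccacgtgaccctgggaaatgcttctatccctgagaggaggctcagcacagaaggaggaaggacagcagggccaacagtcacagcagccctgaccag

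CLDN3 had the most GC-rich window of the 6, with 72.0% G + C, 24 CpG dinucleotides, 1 E-box and 6 GC boxes, of which the last 2 overlap. The CLDN4 window had 59.0% G + C, 5 CpG and 1 GC box, and the CLDN7 window (chr17:7263164-7263463), which lay under H3K4me2 and no MTBP peak, had 60.0%, 10 CpG and 1 CCAAT. G + C came to 56.3% in GPA33, 53.3% in CEACAM5 and 56.0% in CEACAM6, with 0, 2 and 5 CpG. Over the 13792 promoter windows of protein-coding genes the median was 65.3% where an MTBP peak overlapped, 66.7% with H3K4me2 alone and 55.3% with neither, so CLDN3 lay above the first of these medians and CLDN4 below it. The GC box was in 58.5% of all windows, CCAAT in 37.1%, the E-box in 19.6%, the CDX2 core in 18.3% and TATAAA in 10.0%.

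GPA33 carried its 2 E-boxes and 2 CCAAT matches inside a tandem repeat, agctCACCTGCCAATccagctgagg, a 25-base unit present as 2 adjoining exact copies that begin at positions 143 and 168 of the window. CEACAM5 had an E-box followed directly by a CDX2 core match on the opposite strand, at position −68 from the start. CEACAM6 had TATAAA at position −139 and a GC box at −211. The CEACAM5 and CEACAM6 windows were alike, with 230 of 300 bases (76.7%) identical in a global alignment and a longest shared run of 21 bases, cagaaatgagaggggagggga. All other pairs of the 6 matched windows, aligned in the same way, had 47.0% to 56.0% identity.

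All 10 genes had an MTBP peak and an H3K4me2 peak within 20 kb, and 8 had an initiation zone. Among all protein-coding genes the shares were 71.1% for MTBP, 86.2% for H3K4me2 and 32.1% for a zone, and 29.2% had all of them, as did 8 of the 10. An MTBP peak of the authors' promoter class was near 7 of the 10 genes, against 58.9% of all protein-coding genes. One of the enhancer class was near 5 of them, against 18.0%. The pooled windows held 5.67 MTBP and 8.03 H3K4me2 peaks per 100 kb, against 1.76 and 3.33 in the windows of all protein-coding genes. The median window was 59.8 kb for the 10 genes and 64.2 kb for all. Pooled densities weigh long windows more, and window lengths were not matched. Per gene, the median was 3.5 MTBP and 5 H3K4me2 peaks, against 1 and 3 for all protein-coding genes. Neighbouring genes share these counts, since CLDN3 and CLDN4 lay in 1 zone and the CEACAM5 and CEACAM6 windows shared an H3K4me2 peak.

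**Figure D1:**
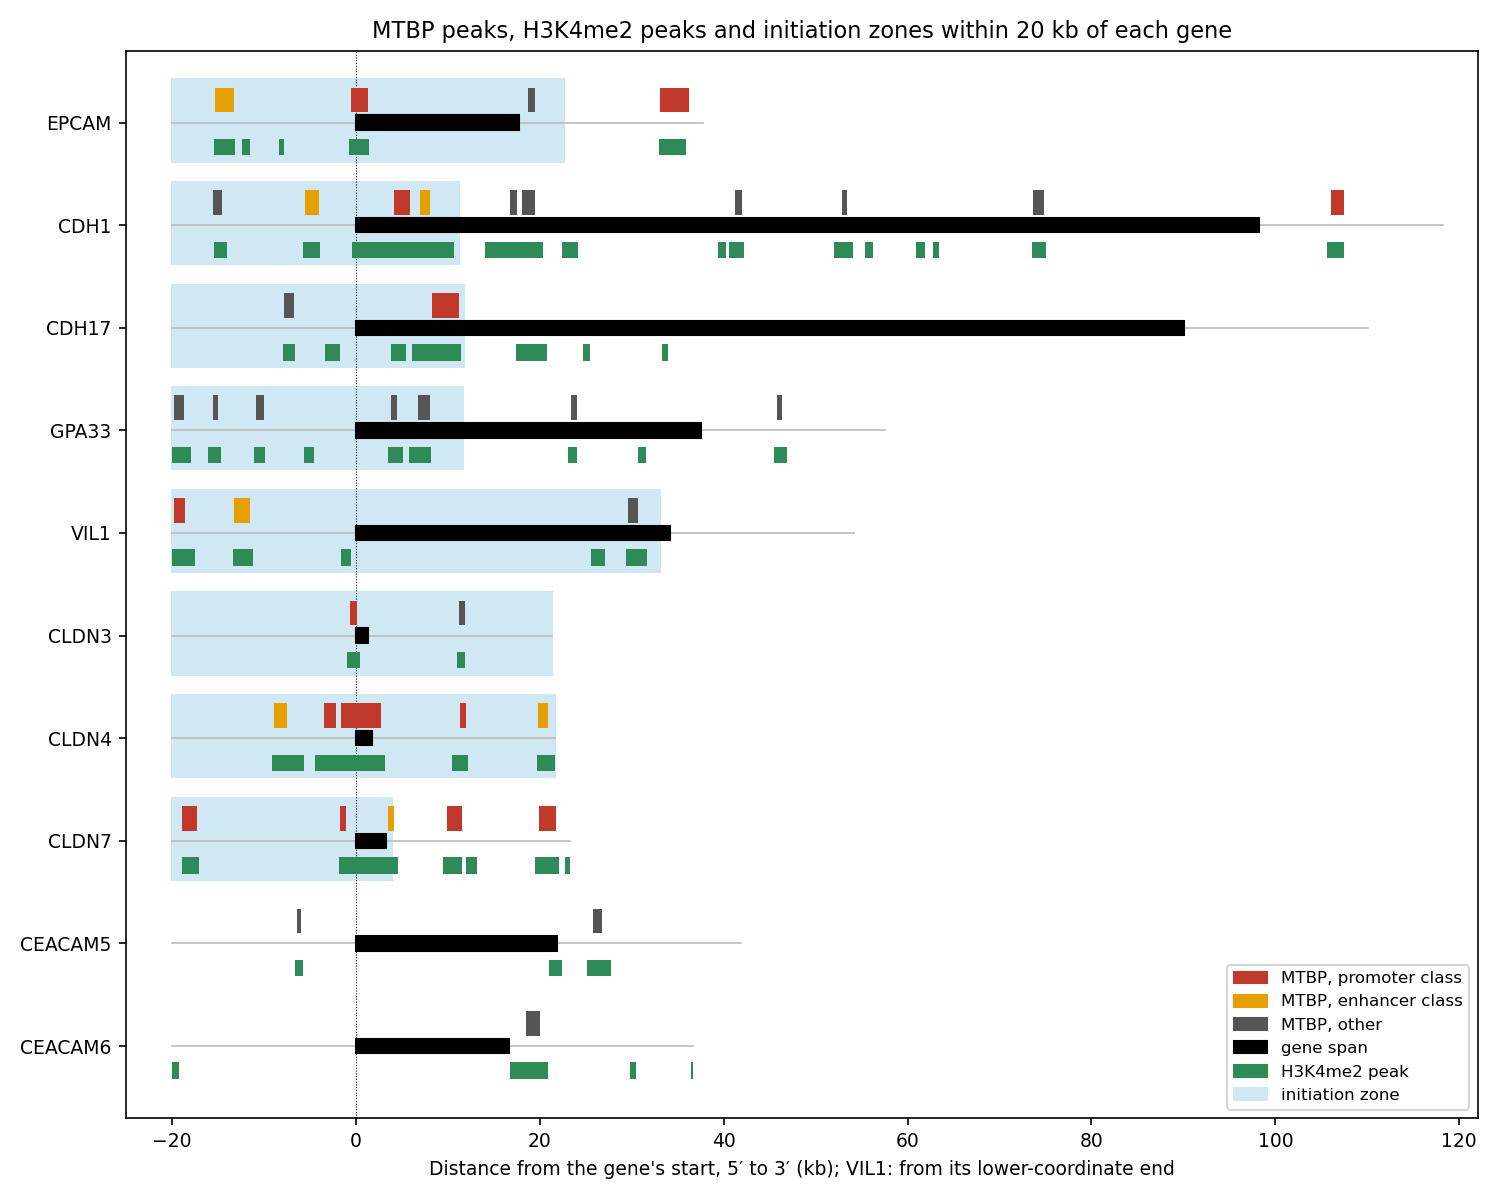
Map of the 10 genes, with distance from the gene's start in kb (5′ to 3′) on the x axis and 1 gene per row; VIL1 is drawn from its lower-coordinate end. Red, orange and dark grey blocks above each gene are MTBP peaks of the promoter, enhancer and other classes, black bars are gene spans, green blocks are H3K4me2 peaks and pale blue bands are initiation zones, all clipped to 20 kb beyond the gene. The 8 genes other than CEACAM5 and CEACAM6 have a zone over the end drawn at 0.

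By the authors' classes, 14 of the 41 MTBP peaks were at promoters, 7 at enhancers and 20 at other places. These make up 34.1%, 17.1% and 48.8% of the 41, close to the 34.7%, 17.6% and 47.7% of the whole list. The promoter class was not a count of the genes' own promoters. The start site implied by the authors' signed distance was that of EPCAM, CLDN3, CLDN4 or CLDN7 for 4 of the 14 peaks. It was that of another RefSeq gene for 6, among them RNA5SP429, TANGO6, METTL27, GABARAP and SLC2A4, and matched no gene end within 200 bp for the other 4. H3K4me2 overlapped 40 of the 41 peaks, against 98.9% of the list. All 41 were named for WT, while 2.94% of the list was named for deltaC.

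The starts themselves were covered less often than the windows. Strand was known for 9 genes, from the promoter table for 6 and from the authors' distances for EPCAM, CDH1 and CDH17. VIL1 had neither source, so its lower-coordinate end is used, and no peak of either kind covered it. A peak near its higher end was annotated to exon 20 of 20, which places the start at the lower end. VIL1 is nonetheless left out of the counts for genes of known strand. H3K4me2 covered the start of EPCAM, CDH1, CLDN3, CLDN4 and CLDN7, 5 of the 9, against 59.2% of all genes with a known strand. MTBP covered the start of EPCAM, CLDN3 and CLDN4, 3 of the 9, against 37.2%. Of the 5 starts with H3K4me2, those 3 had MTBP, against 62.6% of all starts with H3K4me2. From the start to the nearest MTBP peak it was 1119 bp at CLDN7, 3803 bp at GPA33, 4057 bp at CDH1, 5988 bp at CEACAM5, 6696 bp at CDH17 and 18509 bp at CEACAM6.

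EPCAM, the epithelial cell adhesion molecule, spans chr2:47369311-47387020. Its promoter-class peak (chr2:47368728-47370645, score 300) covered the start and was annotated to a CpG island. The signal there was 289 in deltaC and 794 in WT, the lowest deltaC share of the 4 peaks near the gene (log2 of −1.46). An enhancer-class peak 13.3 kb upstream (chr2:47353953-47356014, score 550) had 747 in deltaC and 1341 in WT (−0.84). A peak of the other class lay just past the end of EPCAM in an LTR41 repeat of the ERVL family (chr2:47387986-47388823, score 95), with 144 in deltaC and 241 in WT (−0.73). It was the only one of the 41 peaks without H3K4me2.

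EPCAM lay near the edge of a large zone. The zone (chr2:47161421-47391992, 231 kb, score 10226, the highest of the list and 21st by width) covered the whole gene, and its higher edge lay 22.7 kb past the start. It held 20 MTBP peaks, of which 5 were promoter, 3 enhancer and 12 other, or 86.7 per Mb, and 22 H3K4me2 peaks. CALM2, a calmodulin gene, was the only other protein-coding gene that overlapped it.

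CDH1, which encodes E-cadherin, the main adhesion molecule of epithelial adherens junctions, had the widest window and the most peaks, 10 MTBP and 13 H3K4me2 (chr16:68737292-68835537). Per 100 kb it had 7.23 MTBP peaks, fewer than CLDN4 (11.99), CLDN7 (11.5) and GPA33 (9.03). An 11108-bp H3K4me2 peak (fold 27.7) began just before its start and ran into intron 2, yet no MTBP peak covered the start. MTBP lay on both sides of it. Upstream, an enhancer-class peak 4.06 kb away (chr16:68731792-68733235) had the highest score, 591, with 553 in deltaC and 890 in WT (log2 of −0.69). A peak of the other class in an L2c repeat 14.55 kb upstream (chr16:68721789-68722738, score 485) had 250.5 in deltaC and 490 in WT (−0.96). Downstream, a promoter-class peak 4.13 kb into the gene (chr16:68741422-68743170, score 131) had 354 in deltaC and 646 in WT (−0.86). The start implied for that peak was that of RNA5SP429, a 5S RNA pseudogene inside CDH1, and the transcript named in its annotation was not matched.

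Inside CDH1 the deltaC share was lower at the deeper peaks than at those near the start. The 2 peaks within 7 kb of the start inside the gene had log2 values of −0.86 and −0.92, while the 5 deeper ones, 16.7 to 73.6 kb in, lay between −1.17 and −1.44. The deepest, annotated to intron 6 of 14 (chr16:68810910-68812183), had 157 in deltaC and 417 in WT (−1.40). All 5 of these deeper peaks were of the other class and outside the zone. The zone (chr16:68691147-68748526, 57.4 kb, score 1110) took in the start and the first 11.2 kb, 11.4% of the gene, and reached back over part of CDH3, the neighbouring P-cadherin gene. The remaining promoter-class peak of the window was that of TANGO6 (chr16:68843298-68844769), with 144 in deltaC and 246 in WT (−0.76).

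CDH17, the intestinal cadherin of the liver-intestine type, had 2 MTBP peaks and 7 H3K4me2 peaks (chr8:94127162-94217278, start at the higher end). The intron 1 peak (chr8:94206025-94208996, score 360) was 2972 bp wide and held 778 in deltaC and 1095 in WT (log2 of −0.49). The authors placed it in the promoter class, 1045 bp from a start site, although it lay 8.28 kb inside the gene from the RefSeq start. The other peak, 6.70 kb upstream (chr8:94223974-94225091, score 103), had 166 in deltaC and 347 in WT (−1.06). A 38.3-kb zone (chr8:94205523-94243831, score 829) held both of them and covered the start and the first 11.8 kb, 13.0% of the gene.

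At CDH17, MTBP overlapped 2 of 7 H3K4me2 peaks, against 43.6% of all H3K4me2 peaks. Of the 19 H3K4me2 peaks without MTBP in all windows, 5 were here and as many at CDH1. Those here included the strongest of the 19 (chr8:94196495-94199887, fold 30.3), 17.4 kb inside the gene and outside the zone. That fold was at or above 85.6% of all H3K4me2 peaks, and it exceeded the 17.7 of the intron 1 peak that carried MTBP.

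The claudin genes are short, 1.27 to 3.31 kb. The authors' promoter class made up 8 of the 12 MTBP peaks in their windows, some of them at promoters of neighbouring genes. CLDN3 (chr7:73768997-73770270) had 2 peaks. Its promoter peak (chr7:73770211-73770929, score 472), which covered the start and the whole sequence printed above, had 196 in deltaC and 502 in WT (log2 of −1.35). The peak 11.2 kb downstream (chr7:73758389-73759051, score 201) had 48.2 in deltaC and 300.2 in WT (−2.61), so only 2.94% of all MTBP peaks had a deltaC share as low or lower.

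CLDN4 (chr7:73830996-73832690) had 5 MTBP peaks and 4 H3K4me2 peaks, each of which overlapped MTBP. The widest MTBP peak of the 41, 4410 bp (chr7:73829325-73833734, score 222), covered the whole gene, with 584 in deltaC and 1375 in WT (log2 of −1.23). A second promoter-class peak 2.15 kb upstream (chr7:73827482-73828841, score 396) lay 13 bp from a start site that matched no gene end, with 442 in deltaC and 838 in WT (−0.92). Farther upstream an enhancer-class peak (chr7:73822084-73823536, score 459) had 217 in deltaC and 668 in WT (−1.62). Downstream, the promoter peak of METTL27, a neighbouring gene (chr7:73842262-73842941, score 160), had 89.9 in deltaC and 312 in WT (−1.79) under the strongest H3K4me2 of all windows, fold 49.4. The last, an enhancer-class peak in an AluJr repeat, had 198 in deltaC and 488 in WT (−1.30).

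CLDN3 and CLDN4 lay in the same 362-kb zone (chr7:73520999-73882688, score 1850, second of the list by width). It overlapped 13 protein-coding genes including these 2, among them BAZ1B, MLXIPL and STX1A, and held 19 MTBP peaks, 10 promoter, 7 enhancer and 2 other. At 52.5 MTBP peaks per Mb it was the sparsest of the 7 zones, and that of GPA33, with 138, the densest.

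CLDN7 (chr17:7259903-7263213, start at the higher end) had 5 MTBP peaks and none inside its span. A 6464-bp H3K4me2 peak (fold 29.96) covered the whole gene and 2 of them. One, 1.12 kb upstream of the start (chr17:7264332-7264966, score 150), had 158 in deltaC and 207 in WT (log2 of −0.39), the highest deltaC share of the claudin peaks. The other, an enhancer-class peak just past the gene's end (chr17:7259025-7259752, score 121), had 60.3 in deltaC and 215 in WT (−1.82). The enhancer-class peak thus had the lower deltaC share of the pair under this H3K4me2 peak. Farther upstream, the promoter peak of SLC2A4, a glucose transporter gene (chr17:7280496-7282117, score 255), had 259 in deltaC and 692 in WT (−1.41). The zone (chr17:7259297-7451178, 192 kb, score 2408) covered the whole gene, with its lower edge 3.92 kb from the start, and ran on over 19 other protein-coding genes, SLC2A4 and EIF5A among them.

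The lowest deltaC share of the 41 peaks was also in the CLDN7 window, at the promoter of GABARAP, an autophagy gene (chr17:7241475-7243329, score 201). It had 60.0 in deltaC and 664 in WT (log2 of −3.45), and 1.49% of all MTBP peaks were as low or lower. The next peak along, at the promoter of CTDNEP1, had 274 in deltaC and 405 in WT (−0.56). Both lay outside the zone.

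GPA33, the A33 antigen of gut epithelium, had 7 MTBP and 9 H3K4me2 peaks (chr1:167052836-167090377, start at the higher end), and all 7 MTBP peaks were of the other class. Of these, 3 lay inside the gene, 1 was downstream and 3 were upstream, 2 of them in intron 2 of STYXL2. The peak with the highest score, 485, was one of these (chr1:167100385-167101261), with 211 in deltaC and 492 in WT (log2 of −1.22). The upstream peak in an L1PBa repeat (chr1:167109107-167110219, score 446) had 134 in deltaC and 570 in WT (−2.08). A peak in intron 1, 3.80 kb inside (chr1:167085868-167086574, score 150), had 74.4 in deltaC and 291 in WT (−1.95), while its neighbour in the same intron (chr1:167082354-167083600, score 222) had 238 in deltaC and 445 in WT (−0.90) under the strongest H3K4me2 of the gene, fold 46.5. The downstream peak (chr1:167043992-167044566, score 103) had 186 in deltaC and 199.97 in WT (−0.10), the highest deltaC share of the 41 peaks. The peaks near GPA33 thus ran from almost no difference to a 4.23-fold lower signal. The zone (chr1:167078764-167122136, 43.4 kb, score 805) took in the start and the first 11.6 kb, 30.9% of the gene, with 5 of the 7 peaks.

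VIL1, which encodes villin, had 3 MTBP and 5 H3K4me2 peaks (chr2:218419123-218453295). Its only MTBP peak inside the gene was in exon 20 of 20 (chr2:218448718-218449769, score 289), with 216 in deltaC and 492 in WT (log2 of −1.18). The promoter-class peak of the window lay in the 5′ UTR of CTDSP1, the neighbouring phosphatase gene (chr2:218399327-218400474, score 160), with 168 in deltaC and 386 in WT (−1.19). An enhancer-class peak at the end of CTDSP1 (chr2:218405906-218407571, score 312) had 401 in deltaC and 697 in WT (−0.80). The H3K4me2 peak nearest to the lower end of VIL1, 562 bp away (fold 12.6), had no MTBP. The zone (chr2:218353393-218452175, 98.8 kb, score 2979, 105th of the list by score) covered 96.7% of the gene and left out its higher end.

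The CEACAM genes stood apart in 1 respect: neither had a zone. The nearest was 133 kb from CEACAM5 (chr19:41708626-41730519), which encodes carcinoembryonic antigen, and 91.7 kb from CEACAM6 (chr19:41755530-41772211). They had 3 MTBP peaks, none of the promoter or enhancer class and none inside a gene. The peak 5.99 kb upstream of CEACAM5 (chr19:41702196-41702638, score 180) had 175 in deltaC and 205 in WT (log2 of −0.23). The peak between the genes (chr19:41734372-41735411, score 266) had 376 in deltaC and 481 in WT (−0.35). The peak just past the end of CEACAM6, in an LTR34 repeat (chr19:41774039-41775538), had the highest score of the 41, 729, with 579 in deltaC and 1053 in WT (−0.86). Both peaks near CEACAM5 were among those of the list with the highest deltaC share, with 91.1% and 87.2% of all MTBP peaks at or below them.

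At the longer genes of known strand the zone lay over the start and not over the other end. CDH1, CDH17 and GPA33 each had 1 end in a zone, and it was the start in 3 of 3. VIL1, not counted here, had its lower-coordinate end in a zone and its higher end outside. Among all protein-coding genes with known strand and exactly 1 end in a zone, it was the start in 66.9%, and in 74.4% of those of at least 30 kb. EPCAM, CLDN3, CLDN4 and CLDN7 lay wholly in their zones. With these, the start was in a zone in 7 of the 9 genes of known strand, against 19.6% of all such genes.

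Zones held 27 (65.9%) of the 41 peaks, against 23.0% of the whole list. They were all 7 enhancer-class peaks, 10 of the 14 promoter-class peaks and 10 of the 20 others. The peaks outside zones were those at CEACAM5 and CEACAM6, the deeper ones in CDH1, 2 at GPA33 and promoter-class peaks of neighbouring genes, among them TANGO6, GABARAP and CTDNEP1. Median zone score was 1850 for the 7 zones, against 628 for all zones, and median width was 98.8 kb against 48.3 kb. Wide zones overlap a gene window more readily, and the zones near other genes were not compared. No conclusion is drawn from these medians.

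Signal in the deltaC line was compared with that in the WT line at each peak as log2((deltaC + 1)/(WT + 1)), which gives the sizes named above. DeltaC was the lower at all 41 peaks, and across the whole list deltaC exceeded WT at 4.52%. All 41 were named for WT, and only 2.94% of the list was named for deltaC. Whether such a list favours peaks with more signal in WT was not tested, so no conclusion is drawn from the shared direction. The 41 values had a median of −1.06 (range −3.45 to −0.10), with a median signal of 210 in deltaC and 481 in WT. The median of all MTBP peaks was −0.93, so most of this difference was shared by the whole list, and the scaling between the lines is not stated. A deltaC signal at least 2-fold lower was found at 21 of the 41 peaks (51.2%), close to the 44.9% of all peaks.

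The classes had close values. A value at least 2-fold lower was found at 7 of 14 promoter, 3 of 7 enhancer and 11 of 20 other peaks, against 47.6%, 47.2% and 42.1% in the whole list. Their medians were −1.06, −0.92 and −1.11. The differences between these medians were smaller than the spread of peaks within each class.

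**Figure D2:**
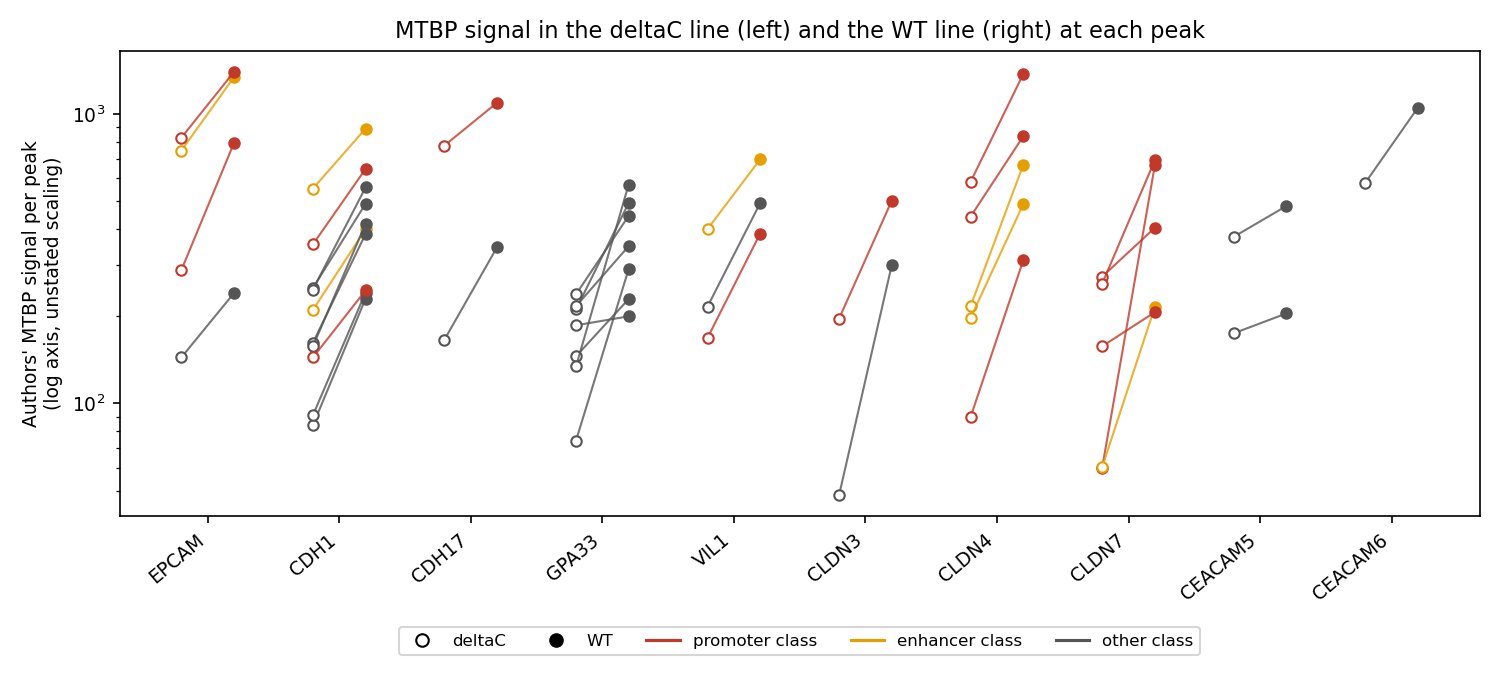
MTBP signal per peak as the authors gave it for the deltaC line (open circles, left) and the WT line (filled circles, right), on a log axis of unstated scaling, for each gene. Lines join the 2 values of a peak, and colours give its class. All 41 lines run up from deltaC to WT, most steeply at the GABARAP promoter in the CLDN7 window, with 60.0 in deltaC and 664 in WT. All 41 peaks were named for WT, and no conclusion is drawn from the shared direction.

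Gene medians lay farther apart than class medians, but they rest on 1 to 10 peaks each, against 7 to 20 for the classes. Those at either end, of CLDN3 and CEACAM5, rest on 2 peaks each. A difference between genes was not tested. The peaks in the claudin windows had the lowest median, −1.38. Of these 12, 9 were at least 2-fold lower, with signals of 48.2 to 584 in deltaC and 207 to 1375 in WT. The promoter peaks of METTL27, GABARAP and SLC2A4 are among them. Peaks within 1 Mb outside each gene's own window had similar shares at least 2-fold lower, with 78.8% around CLDN3, 80.0% around CLDN4 and 67.2% around CLDN7. The regions around CLDN3 and CLDN4 largely overlap, and each takes in the window peaks of the other gene. The cadherin peaks had −1.01 (6 of 12), those of EPCAM, GPA33 and VIL1 −0.87 (6 of 14), and those of the CEACAM genes −0.35 (0 of 3). By gene the medians ran from −1.98 at CLDN3, −1.41 at CLDN7, −1.30 at CLDN4, −1.18 at VIL1 and −1.07 at CDH1 to −0.90 at GPA33, −0.86 at CEACAM6, −0.80 at EPCAM, −0.77 at CDH17 and −0.29 at CEACAM5. Neighbours in this order had overlapping peak values, except CDH17 and CEACAM5. Relative to the median of all MTBP peaks, the gene medians of EPCAM, CDH17, GPA33, CEACAM5 and CEACAM6 were higher in deltaC and those of the other 5 genes lower. Both peaks at CEACAM5 lay above all peaks of the other genes but 1 of GPA33.

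Some gene medians were close to that of their surroundings and others were not. Peaks within 1 Mb outside the CLDN4 window had a median of −1.25 (30 peaks, 80.0% of them at least 2-fold lower), close to the −1.30 inside it. CLDN3, with −1.98 from 2 peaks, lay below its surroundings, which had −1.24 (33 peaks). These surroundings largely overlap those of CLDN4 and are not a separate background. The median of all chromosome 7 peaks was −0.87. Around CLDN7 it was −1.15 (58 peaks), and all of chromosome 17 had −1.22. CEACAM5, with −0.29, differed from its surroundings, which had −1.05 (49 peaks), and from all of chromosome 19, which had −1.18. Peaks around EPCAM had −1.09 (63 peaks) against −0.80 in its window (4 peaks). Closer to their surroundings were CDH1, with −1.07 in its window and around it (50 peaks), and VIL1, with −1.18 against −1.23 (47 peaks). So was CDH17, with −0.77 against −0.83 (47 peaks). GPA33 had −0.90 against −0.77 (24 peaks), and CEACAM6 −0.86 against −1.07 (48 peaks). The surroundings of CEACAM5 and CEACAM6 overlap. The part of the surroundings in these values was not tested.

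**Figure D3:**
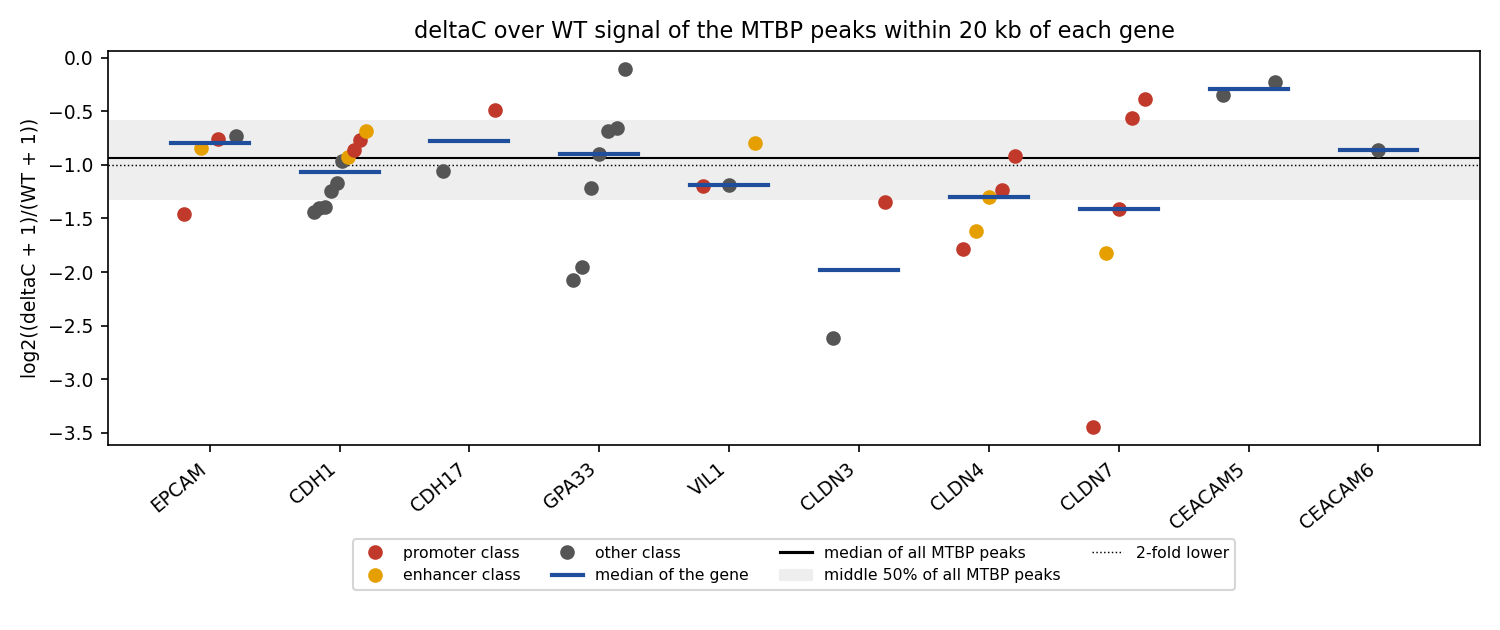
Log2 of deltaC over WT signal, with 1 added to each, for every MTBP peak within 20 kb of the 10 genes; points are peaks coloured by class, blue bars are the medians of the genes, the black line is the median of all MTBP peaks (−0.93), the grey band their middle 50%, and the dotted line marks 2-fold lower. CLDN3, CLDN7, CLDN4, VIL1 and CDH1 have medians below the line of 2-fold and CEACAM5 lies above the grey band.

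H3K4me2 peaks near these genes more often carried MTBP than those of the whole list. An MTBP peak of the list, within the windows or just outside them, overlapped 38 of the 57 (66.7%), against 43.6% of all H3K4me2 peaks. The 38 had a median fold enrichment over background of 24.4 (range 8.95 to 49.4), and the 19 without MTBP one of 10.8 (3.27 to 30.3). In the whole list the medians were 23.0 and 9.35. Width differed likewise, with a median of 2054 bp where MTBP was present and 1011 bp where it was not, against 2189 and 973 bp in the whole list. At the claudins 11 of 12 H3K4me2 peaks had MTBP, at CDH1 8 of 13 and at CDH17 2 of 7. Near GPA33 the 7 with MTBP had folds of 18.5 to 46.5 and the 2 without had 12.6 and 13.6, so the groups did not overlap. Nor did they at EPCAM, CLDN7 and CEACAM6, which also had few peaks. At CDH1, CDH17, VIL1 and CEACAM5 they did, and at CLDN3 and CLDN4 every H3K4me2 peak had MTBP. In the whole list folds ran from 2.42 to 103.6 with MTBP and from 2.03 to 81.0 without. The share of all genes at which the groups do not overlap was not counted. No conclusion is drawn from the genes without overlap.

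**Figure D4:**
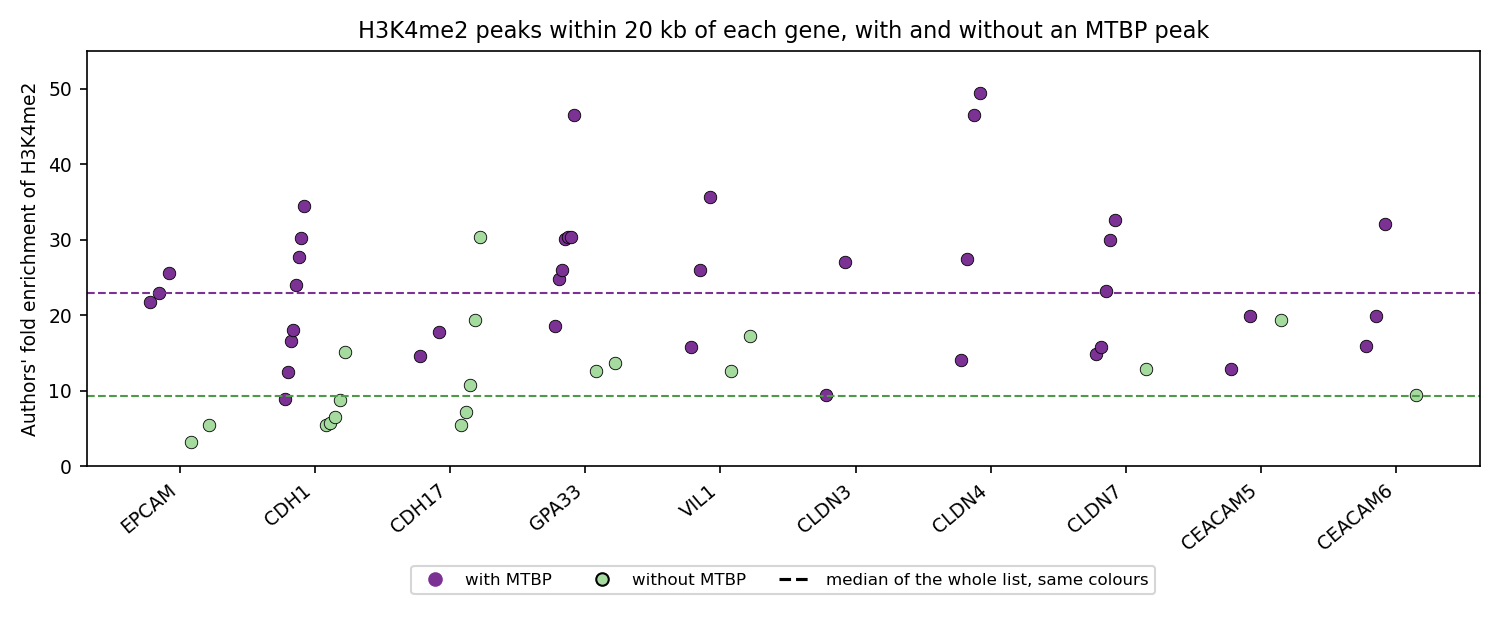
Fold enrichment of H3K4me2, as the authors gave it, for each peak within 20 kb of the 10 genes, with MTBP (purple, left) and without (green, right). Dashed lines are the medians of the whole list, 23.0 with MTBP and 9.35 without. CDH17 has the strongest peak without MTBP, at 30.3.

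Other genes of the same structures were set beside the 10. Of 34 genes of junction and brush border partners, such as catenins, zonula occludens proteins, desmosomal proteins and other claudins, 30 had MTBP within 20 kb, 33 had H3K4me2 and 16 had a zone. The 4 without MTBP were ANKS4B, which also lacked H3K4me2 and a zone, CEACAM1, MARVELD3 and USH1C. Of 21 adhesion genes of other cell types, 13 had MTBP (61.9%), 17 had H3K4me2 (81.0%) and 6 had a zone (28.6%). The shares of all protein-coding genes were 71.1%, 86.2% and 32.1%, and those of the 34 partners 88.2%, 97.1% and 47.1%. VCAM1, CDH11, CLDN5 and CLDN18 had no H3K4me2.

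**Figure D5:**
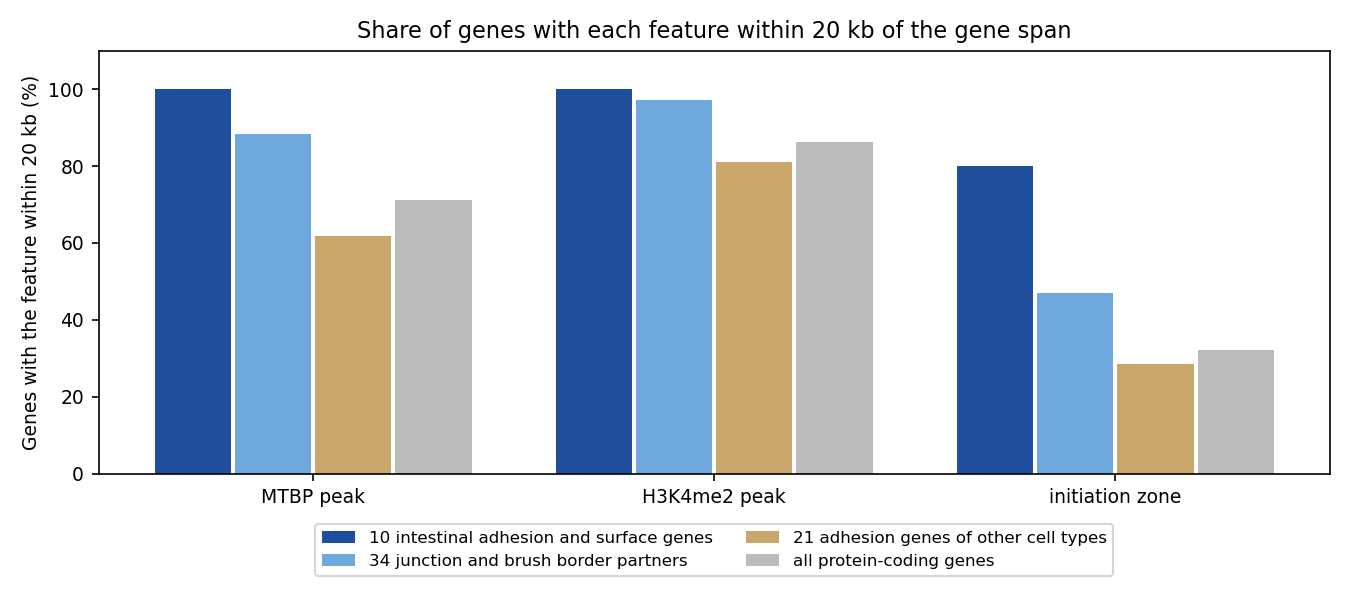
Share of genes, in percent, with an MTBP peak, an H3K4me2 peak or an initiation zone within 20 kb of the gene span, for the 10 intestinal adhesion and surface genes, 34 junction and brush border partners, 21 adhesion genes of other cell types and all protein-coding genes. The zone shares are 80.0%, 47.1%, 28.6% and 32.1%.

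The tissue of the line was checked with markers. All 10 markers of intestinal epithelium, which include EPCAM and VIL1, had H3K4me2 and MTBP within 20 kb, with a median of 4 H3K4me2 peaks. Of 26 markers of blood, endothelium, fibroblasts, muscle, neurons and hepatocytes, 21 had H3K4me2 (80.8%), with a median of 2, and 17 had MTBP (65.4%). The shares of all protein-coding genes were 86.2% and 71.1%. Presence of a peak within this window thus told the tissues apart poorly. ALB, KDR, MYH2, MYOD1 and TTR had no H3K4me2.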

How the data were processed

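MTBP binding and H3K4me2 were measured by CUT&RUN and replication by EdU-seq in DLD-1 lines. Trim Galore, Bowtie2, MACS2 and HOMER were used with hg38, per the submitters' processing notes; no source used here gives versions, parameters, pooling or the EdU libraries behind the zones. The deposited MTBP list has, per peak, a score, a signal for deltaC and WT of unstated scaling, a class and a signed distance to a start site. The deposited zone list has a score per zone. The deposited H3K4me2 list has a score, a fold enrichment (ratio), a −log10 q-value per peak. Scores and folds are the authors' own and only describe or rank peaks. Values per library, and so depth and replicate error, are unknown, and the planned comparison is given without a test.

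Gene spans and promoters came from RefSeq (GRCh38.p14). Windows reached 20 kb beyond the span, overlap was at least 1 bp, a distance matched a start within 200 bp, and 1 was added to each signal before log2. The 10 MTBP peaks on Y were left out. MTBP coordinates are as deposited, and H3K4me2 starts are counted from 1. All 10 genes were described by rule, with their promoter peaks, the peak of the highest score of each class and the zone; other peaks were added after their values were seen. Peaks not described singly are in the counts, and a result at one of them is not reported here. The genes and lists were chosen with earlier results of these data known. The untagged, IgG and G1 libraries were not analysed here, and 0 columns of samples were left unused. The overlap functions were tested on simulated data (Python 3.11.15, pandas 2.3.3, numpy 2.4.6, Biopython 1.88). Windows, thresholds, classes, added constants and centring were varied.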

Additional observations from a re-analysis of the deposited data

How the results depend on the processing

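Of 40 alternative values of the main counts and medians, 31 stayed within 1.5 times the count or 0.1 of the log2 value reported. Within that tolerance, genes with an MTBP peak numbered 7 of 10 and those with H3K4me2 9 of 10 with no window, and MTBP peaks numbered 33 within 20 kb of the starts. Counted as 8 loci, an alternative chosen after seeing the data, 8 had MTBP, 8 had H3K4me2 and 7 had a zone. The number of genes with a zone was 5 of 10 when at least 50% of the span had to lie inside. Shares of all protein-coding genes were not computed at these alternative settings. The counts therefore do not show how the 10 genes compare with all genes there. The MTBP peaks numbered 15 with no window, 22 with 5 kb, 65 with 50 kb and 26 with a score of at least the list's median. Promoter peaks numbered 9 at that score, and enhancer peaks 26 when any H3K4me2-marked peak not annotated to a promoter counted. The median log2 of deltaC over WT was −1.23 with no window and −0.12 after subtracting the median of all MTBP peaks. That subtraction moves every gene by the same amount, so the gene medians above that of the list become positive by construction: EPCAM (0.13), CDH17 (0.16), GPA33 (0.0352), CEACAM5 (0.64) and CEACAM6 (0.0701). The scaling between the lines is not stated. No paired analysis was possible because the lists hold no values per library, and for the same reason leaving out single libraries was not run. The depth behind each value is unknown.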
